A study of Mus musculus with 20 samples.

Results

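The genes described here encode the NADPH oxidases of the colon, their partner proteins and inducible nitric oxide synthase, 9 genes among 21423 gene symbols on the array. They were taken by name, with earlier results of these data known. Nox1, Noxo1, Duox2, Duoxa2 and Nos2 were grouped as genes of the epithelium, and Cyba, Cybb, Ncf1 and Ncf4 as genes of the phagocyte oxidase. Of the 9 genes, 7 had a probe set of their own that passed a filter on dim signals, and these were tested among 16739 genes. The other 2 were read only by probe sets that the annotation gives to a pair of genes, Noxo1 with Tbl3 and Duoxa2 with Duoxa1. These shared probe sets were tested in a second fit of 17574 genes and probe sets, and their values are never assigned to either gene of the pair.

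NADPH oxidases move electrons from NADPH across a membrane to oxygen and so make superoxide or hydrogen peroxide. Colonocytes carry NOX1, which needs the organizer protein NOXO1, and DUOX2, which reaches the cell surface with the maturation factor DUOXA2. Neutrophils and macrophages carry the phagocyte oxidase, whose membrane core is the pair of gp91phox (Cybb) and p22phox (Cyba) and whose cytosolic proteins include p47phox (Ncf1) and p40phox (Ncf4). Cyba also serves NOX1, so its signal is not that of phagocytes alone. Nos2 encodes the inducible synthase that makes nitric oxide from arginine, and in mice both epithelial cells and macrophages can switch it on.

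Female mice of the strain C57BL/6JOlaHsd, about 11 weeks of age, gave RNA of the middle colon for 20 arrays, 1 for each mouse and 4 for each of 5 groups. In 3 groups colitis was raised with dextran sulphate sodium (DSS), an irritant of the colonic lining, at 3% in the drinking water for 5 days. These groups received cyclosporine A by mouth in methocel at 25 mg/kg daily from day 1 to day 15, a mixture of 2 probiotic strains, L930BB and IM386, by stomach tube before and during DSS, or saline. The healthy groups drank no DSS and received the probiotic mixture or saline. Saline groups are called untreated below. No healthy group received cyclosporine, so its action without DSS was not analysed here. No group received methocel alone, so cyclosporine and methocel cannot be told apart. Mice lived 5 to a cage and the cage of each is not in the labels, so cage and group cannot be told apart.

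Values are log2 expression, and a change is a difference of group means ± the standard error of the fit with n = 4 mice in each group. A gene is called higher or lower where limma, fitted over all tested genes, gave a Benjamini-Hochberg adjusted p under 0.05. Array medians lay between 6.22 and 6.29, and pairs of arrays correlated at 0.965 to 0.994. Precision is limited by how many arrays there are. Earlier work on these data placed 3 mice apart from their groups, number 8 in probiotic colitis, number 6 in untreated colitis and number 2 in untreated healthy mice. Calls of the oxidase and synthase genes that rest on them are given with and without them. As a check of the tissue, the mean of 10 structural markers of the epithelium (Epcam, Krt8 and others) lay between 11.07 and 11.42 on every array. By group it lay at 11.14 to 11.35 in cyclosporine colitis, 11.16 to 11.23 in probiotic colitis and 11.07 to 11.4 in untreated colitis. Probiotic healthy mice were at 11.21 to 11.32 and untreated healthy mice at 11.32 to 11.42, above every probiotic colitis mouse. The mean of 11 neutrophil markers lay at 6.30 to 6.45 in cyclosporine colitis, 6.83 to 9.21 in probiotic colitis, 6.75 to 9.28 in untreated colitis, 6.09 to 6.68 in probiotic healthy mice and 6.05 to 6.32 in untreated healthy mice. The mean of 13 macrophage and monocyte markers lay at 8.08 to 8.46, 8.89 to 9.61, 8.04 to 9.16, 8.0 to 8.20 and 7.78 to 7.86 in the same order. Means of 6 B cell markers lay at 6.63 to 8.67, 8.64 to 9.18, 7.77 to 9.48, 6.17 to 7.07 and 6.39 to 7.32, and those of 6 T cell markers at 6.48 to 6.99, 7.5 to 8.03, 6.54 to 8.04, 6.24 to 6.39 and 6.10 to 6.32. Those of 7 smooth muscle markers lay at 11.21 to 11.86, 11.04 to 11.49, 11.08 to 11.42, 11.57 to 11.72 and 11.70 to 11.80.

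The start regions of 4 of these genes are shown, Nox1, Duox2 and Duoxa2 of the epithelial group and Cybb of the phagocyte group. Nox1, Duox2 and Cybb were higher in colitis, as was the probe set shared by Duoxa2 and Duoxa1. The regions are RefSeq sequences of the mouse build GRCm38.p6, from 250 bases before to 50 after the annotated start. Of the 9 genes 7 had an entry, and those of Noxo1, Cyba and Ncf1 are not printed. Nox1 lies at chrX:134111805-134112104 on the minus strand, Duox2 at chr2:122298178-122298477 on the minus strand, Duoxa2 at chr2:122298650-122298949 on the plus strand and Cybb at chrX:9469275-9469574 on the minus strand. Capitals mark matches to short motifs searched on both strands.
Nox1: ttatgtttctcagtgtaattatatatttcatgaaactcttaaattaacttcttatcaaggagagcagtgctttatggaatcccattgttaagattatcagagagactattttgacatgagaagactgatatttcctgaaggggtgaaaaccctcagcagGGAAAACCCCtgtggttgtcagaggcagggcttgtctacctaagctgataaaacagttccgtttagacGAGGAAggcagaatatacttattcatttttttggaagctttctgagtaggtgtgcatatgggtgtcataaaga
Duox2: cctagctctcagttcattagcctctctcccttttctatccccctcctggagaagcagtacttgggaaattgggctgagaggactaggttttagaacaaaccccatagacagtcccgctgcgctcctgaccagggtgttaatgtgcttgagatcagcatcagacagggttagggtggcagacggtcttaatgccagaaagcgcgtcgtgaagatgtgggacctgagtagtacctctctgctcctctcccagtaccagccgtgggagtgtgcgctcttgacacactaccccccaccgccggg
Duoxa2: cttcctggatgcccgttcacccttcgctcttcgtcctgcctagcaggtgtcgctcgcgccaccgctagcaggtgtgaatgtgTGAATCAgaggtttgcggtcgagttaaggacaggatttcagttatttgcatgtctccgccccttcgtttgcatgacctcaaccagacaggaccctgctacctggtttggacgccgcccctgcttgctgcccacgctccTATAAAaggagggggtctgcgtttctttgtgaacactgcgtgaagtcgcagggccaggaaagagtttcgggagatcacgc
Cybb: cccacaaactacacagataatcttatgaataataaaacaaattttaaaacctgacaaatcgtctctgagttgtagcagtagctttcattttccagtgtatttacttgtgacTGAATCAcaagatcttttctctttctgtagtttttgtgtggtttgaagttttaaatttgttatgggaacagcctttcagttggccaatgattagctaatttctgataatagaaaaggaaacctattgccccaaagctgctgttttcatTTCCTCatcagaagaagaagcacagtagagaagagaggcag
The starts of Duox2 and Duoxa2 stand head to head, 673 bases apart. Nox1 held a match to the NF-kB motif with its first base at position -91 and to the PU.1 letters GAGGAA at -23. Duoxa2 held the AP-1 letters TGANTCA at -168 and the TATA letters TATAAA at -30. Cybb held TGANTCA at -139 and GAGGAA, on the other strand, at position 10 after the start. Duox2 held none of these, nor TTCNNNGAA, the STAT letters, which Ncf1 held at -88, while Noxo1 and Cyba held no match to any of the 5 motifs. Of 32851 promoters of this length, 8.46% held the NF-kB motif, 7.81% TGANTCA, 28.3% GAGGAA, 13.6% TATAAA and 8.3% TTCNNNGAA. A match describes the letters of the window and is not a site of binding.

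All 7 tested genes were higher in DSS colitis, the synthase by the widest margin. In untreated colitis against untreated healthy mice 7 of 7 were called higher, where 11.7% of all tested genes were called higher and 26.1% were called in either direction. Every gene lay higher in all 4 colitis mice than in all 4 healthy mice, as 10.6% of tested genes did. The median change of the 3 epithelial genes was 1.69 and that of the 4 phagocyte genes 1.12, beside -0.027 over all tested genes. In whole tissue, more cells of a type and more RNA per cell cannot be told apart, here and in every result below.

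Among the epithelial oxidases, Nox1 measured 10.65, 11.00, 10.54 and 10.79 in untreated colitis mice 5, 6, 7 and 10, against 9.86, 10.05, 9.23 and 9.41 in untreated healthy mice 2, 4, 6 and 7. The colitis mice lay close together and above every healthy mouse. Nox1 rose by 1.11 ± 0.20 (2.15-fold, adjusted p = 0.000563). Duox2 measured 9.91, 10.03, 10.22 and 10.01 in untreated colitis, against 8.73, 8.51, 7.98 and 8.21 in untreated healthy mice. Its groups were far apart for their spread, with standard deviations of 0.130 and 0.327. Duox2 rose by 1.69 ± 0.15 (3.22-fold, adjusted p = 5.22e-07). The probe set shared by Duoxa2 and Duoxa1 measured 9.88, 10.22, 10.25 and 9.91 in untreated colitis, against 8.69, 8.11, 7.24 and 8.05 in untreated healthy mice, a rise of 2.04 ± 0.24 (adjusted p = 1.33e-05). The probe set of Duoxa1 alone changed by -0.02 ± 0.15 (adjusted p = 0.933). The probe set shared by Noxo1 and Tbl3 measured 9.19, 9.66, 9.48 and 9.53 in untreated colitis, against 9.63, 9.40, 9.33 and 9.65 in untreated healthy mice. These groups overlapped and the change was not called.

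Nos2 had the widest range of the 9 genes. It measured 8.63, 9.56, 10.54 and 10.09 in untreated colitis mice 5, 6, 7 and 10, against 6.69, 6.58, 5.62 and 6.18 in untreated healthy mice 2, 4, 6 and 7. Each colitis mouse stood well above each healthy mouse, though the colitis mice differed widely among themselves. The rise was 3.44 ± 0.43 (10.8-fold, adjusted p = 2.41e-05), which placed Nos2 6th among 16739 genes by size of increase.

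Of the phagocyte genes, Cybb, the catalytic subunit, measured 9.89, 8.46, 9.86 and 9.23 in untreated colitis, against 7.54, 7.63, 7.66 and 7.46 in untreated healthy mice. Untreated colitis mouse 6 lay nearest to the healthy group. Cybb rose by 1.79 ± 0.27 (3.45-fold, adjusted p = 0.000124). Ncf1, the organizer subunit, measured 8.40, 7.26, 9.01 and 8.05 in untreated colitis, against 7.12, 7.12, 6.80 and 6.99 in untreated healthy mice, and mouse 6 was again the lowest colitis mouse. Ncf1 rose by 1.17 ± 0.28 (2.25-fold, adjusted p = 0.005). Ncf4 measured 7.91, 7.24, 8.13 and 7.60, against 6.97, 6.64, 6.58 and 6.39, and rose by 1.07 ± 0.20 (adjusted p = 0.000674). Cyba, the subunit shared with NOX1, measured 9.38, 9.05, 9.44 and 8.99 in untreated colitis, against 8.95, 8.57, 8.59 and 8.63 in untreated healthy mice. Its groups came within a narrow gap of each other, and its rise of 0.53 ± 0.13 (adjusted p = 0.00533) was the smallest of the 7. All 7 calls held when any 1 of these 8 arrays was left out. In this comparison 7 of 11 neutrophil markers and 8 of 13 macrophage and monocyte markers were also called higher, and 0 of 10 structural markers of the epithelium were higher while 3 were lower. Of the B cell markers 6 of 6 and of the T cell markers 5 of 6 were called higher, and 6 of 7 smooth muscle markers were called lower. The part of these cells in the oxidase values was not tested.

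**Figure D1:**
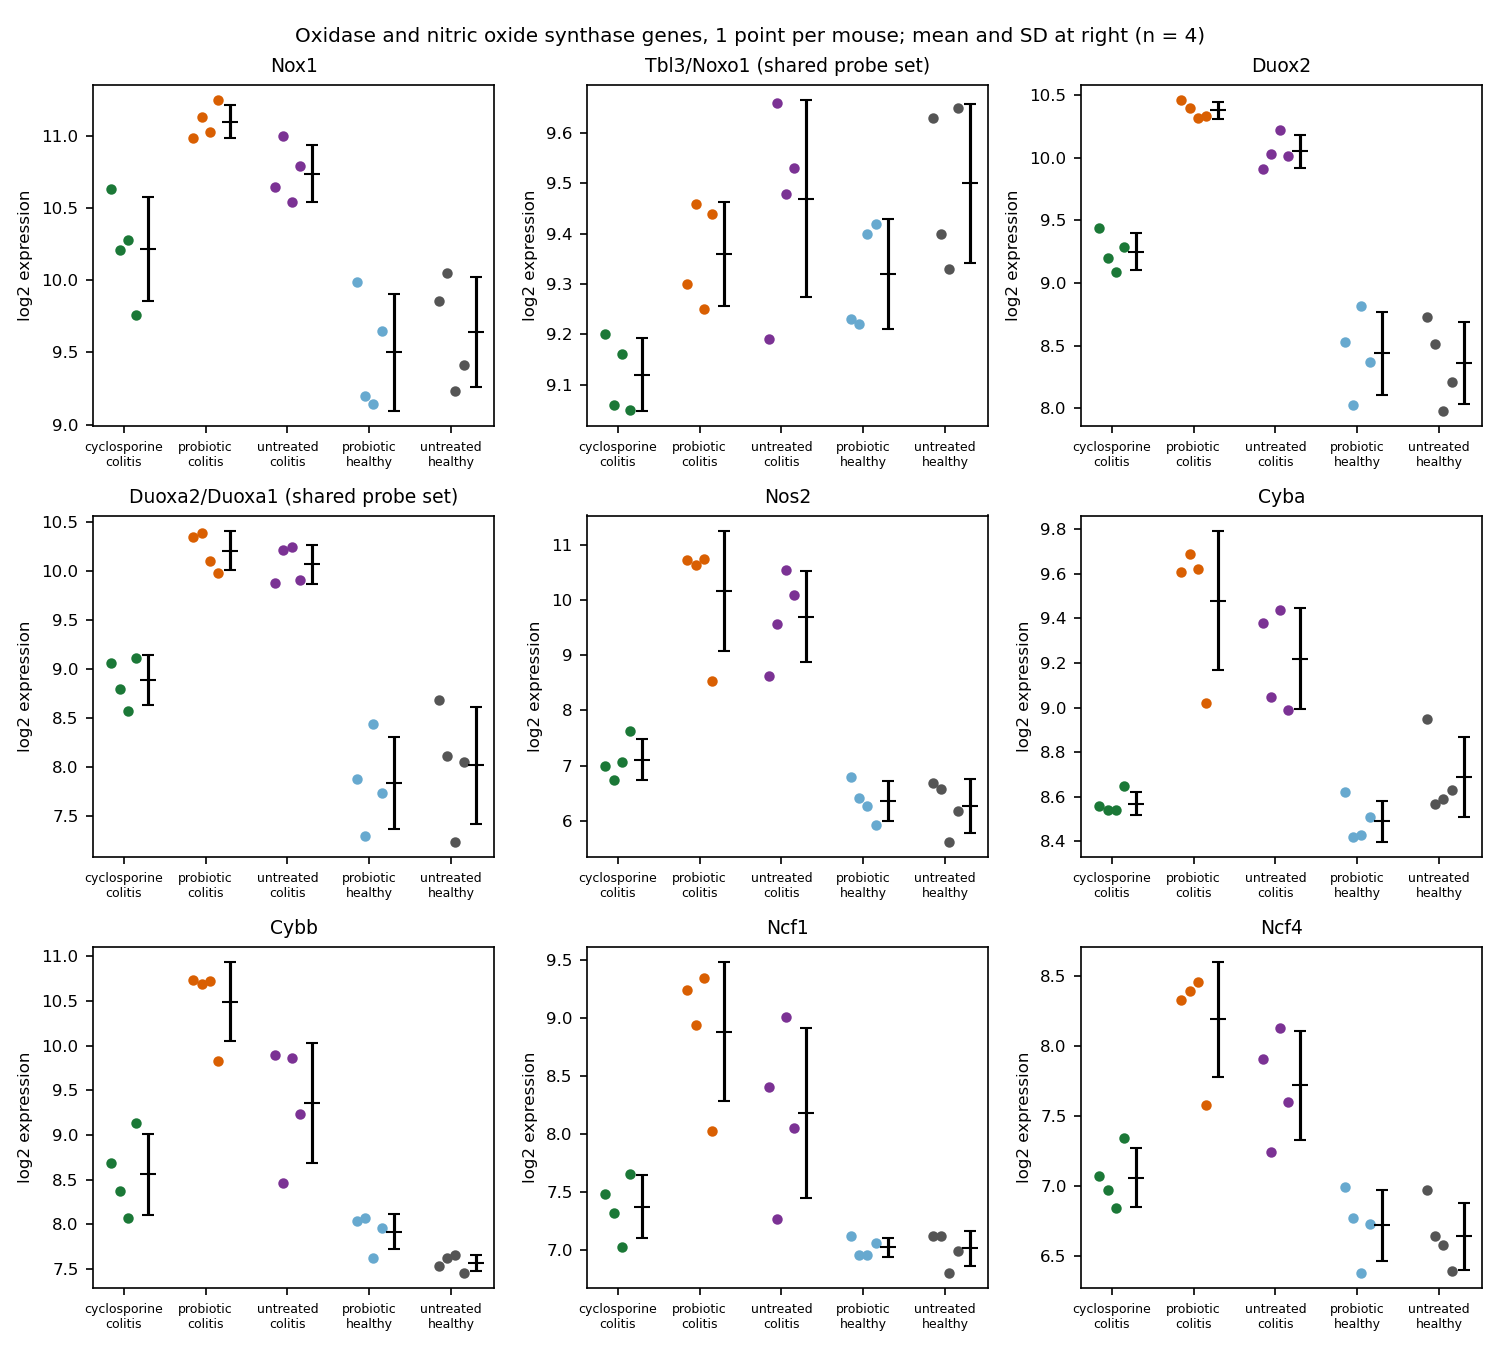
Log2 expression of each oxidase and synthase gene, 1 panel per gene or shared probe set and 1 point per mouse, with the group mean and standard deviation of 4 mice at the right of the points. In the panels of Nox1, Duox2 and Nos2 all untreated colitis mice lie above all untreated healthy mice. Probiotic colitis mouse 8 (the right point of its group) lies below its group in the panels of Nos2, Cyba, Cybb, Ncf1 and Ncf4 but not in those of Nox1 and Duox2. It is also the lowest of its group in the panel of the shared probe set of Duoxa2 and Duoxa1.

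The same genes were higher in colitis when all mice had received the probiotic. In probiotic colitis against probiotic healthy mice 7 of 7 were called higher, where 13.6% of tested genes were and 29.7% were called in either direction. Nos2 rose by 3.81 ± 0.43 (14-fold, adjusted p = 4.69e-06), the 4th largest increase of all tested genes. Cybb rose by 2.57 ± 0.27 (5.93-fold, adjusted p = 2.67e-06), Duox2 by 1.94 ± 0.15 and Ncf1 by 1.86 ± 0.28. Nox1 rose by 1.61 ± 0.20, Ncf4 by 1.47 ± 0.20 and Cyba by 0.99 ± 0.13. In this comparison 10 of 11 neutrophil markers and 12 of 13 macrophage and monocyte markers were called higher, as were 6 of 6 B cell and 6 of 6 T cell markers, while 5 of 7 smooth muscle markers were called lower. Their part was not tested.

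In healthy mice the probiotic left no oxidase gene beyond the threshold. In probiotic healthy against untreated healthy mice 0 of 7 were called, where 0% of tested genes were, the smallest adjusted p over all genes in limma being 0.206 while 1511 genes had an unadjusted p under 0.05. Cybb had the largest difference, 0.35 with a 95% confidence interval of -0.21 to 0.92. Its values were 8.04, 8.07, 7.63 and 7.96 in probiotic healthy mice 4, 5, 6 and 7, against 7.54, 7.63, 7.66 and 7.46 in untreated healthy mice. For Duox2 the interval of the difference was -0.23 to 0.39 and for Nos2 it was -0.82 to 1.00, so a change of moderate size in Nos2 could not be seen.

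Between the DSS groups the probiotic went with higher Cybb. In probiotic colitis against untreated colitis 1 of 7 genes was called higher, Cybb, where 2.13% of tested genes were and 2.8% were called in either direction. Cybb measured 10.73, 10.69, 10.72 and 9.83 in probiotic colitis mice 3, 5, 7 and 8, against 9.89, 8.46, 9.86 and 9.23 in untreated colitis mice 5, 6, 7 and 10. The groups overlapped only through probiotic mouse 8, which lay just under the highest untreated mice. The difference was 1.13 ± 0.27 (2.19-fold, adjusted p = 0.0327). The call was lost without untreated mouse 6 (0.83, adjusted p = 0.129) or 10 and without probiotic mouse 3, 5 or 7 (adjusted p = 0.0768 to 0.119). It was also lost when these 2 groups were fitted alone (adjusted p = 0.206).

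The remaining genes had positive differences that did not pass. Ncf1 measured 9.24, 8.94, 9.34 and 8.02 in probiotic colitis, against 8.40, 7.26, 9.01 and 8.05 in untreated colitis, a difference of 0.70 ± 0.28 (adjusted p = 0.192). Mouse 8 was the lowest of the probiotic group and mouse 6 the lowest of the untreated group. Nos2 measured 10.73, 10.64, 10.75 and 8.53 in probiotic colitis, against 8.63, 9.56, 10.54 and 10.09 in untreated colitis, a difference of 0.46 with an interval of -0.45 to 1.37. Of the probiotic mice 3 lay above every untreated mouse and mouse 8 lay below all of them. Duox2 measured 10.46, 10.40, 10.32 and 10.33 in probiotic colitis, against 9.91, 10.03, 10.22 and 10.01, so that the groups did not overlap (as 3.63% of tested genes did in this direction), yet the difference of 0.33 ± 0.15 did not pass (adjusted p = 0.246). Nox1, with a difference of 0.36 ± 0.20, measured 10.99 to 11.25 in probiotic colitis and 10.54 to 11.00 in untreated colitis.

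Mouse 8 decided the count for the phagocyte genes. Without it Cyba (0.42, adjusted p = 0.0213), Ncf1 (0.99, adjusted p = 0.0254) and Ncf4 (0.68, adjusted p = 0.0295) were called higher beside Cybb, and without untreated colitis mouse 7 Ncf1 was (0.98, adjusted p = 0.0458). Macrophage and monocyte markers differed between the same groups, 10 of 13 being called higher, among them C1qb (1.29 ± 0.22, adjusted p = 0.007), while 0 of 11 neutrophil and 0 of 6 B cell markers and 1 of 6 T cell markers were. Median changes were 0.88 for macrophage and monocyte, 0.67 for neutrophil, 0.48 for B cell and 0.54 for T cell markers, beside -0.019 over all tested genes. The lack of calls among neutrophil markers is therefore not a lack of difference. The part of these cells in the oxidase values was not tested. Whether the probiotic altered the response to DSS was tested as the difference between the colitis effect with and without it. No gene was called for it in limma, among the 7 or among all tested (0%), where 1446 had an unadjusted p under 0.05 and the smallest adjusted p was 0.185. For the 7 genes this difference lay between 0.26 for Duox2 and 0.78 for Cybb, whose interval was -0.02 to 1.58.

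Cyclosporine went with a lower signal of the synthase, Duox2, Cyba and Ncf4. In cyclosporine colitis against untreated colitis 4 of 7 genes were called lower, where 5.58% of tested genes were called lower and 13.2% in either direction. Nos2 measured 7.00, 6.74, 7.07 and 7.63 in cyclosporine colitis mice 4, 7, 9 and 10, against 8.63, 9.56, 10.54 and 10.09 in untreated colitis. No cyclosporine mouse came within the untreated range, as for 6.86% of tested genes. Nos2 fell by 2.60 ± 0.43 on the log2 scale (6.05-fold lower, adjusted p = 0.000841), the 7th largest decrease of all tested genes.

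Duox2 measured 9.44, 9.20, 9.09 and 9.29 in cyclosporine colitis, against 9.91, 10.03, 10.22 and 10.01 in untreated colitis. Both groups were tight and did not overlap. Duox2 fell by 0.79 ± 0.15 (adjusted p = 0.00206). The shared probe set of Duoxa2 and Duoxa1 measured 9.06, 8.80, 8.57 and 9.11, against 9.88, 10.22, 10.25 and 9.91, and fell by 1.18 ± 0.24 (adjusted p = 0.00368), while that of Duoxa1 alone changed by -0.15 ± 0.15 (adjusted p = 0.572). Nox1 measured 10.63, 10.21, 10.28 and 9.76 in cyclosporine colitis, against 10.65, 11.00, 10.54 and 10.79 in untreated colitis. Cyclosporine mouse 4 reached the untreated range, and the difference of -0.52 ± 0.20 did not pass (adjusted p = 0.0918). The shared probe set of Noxo1 and Tbl3 measured 9.20, 9.06, 9.16 and 9.05, against 9.19, 9.66, 9.48 and 9.53. It fell by 0.35 ± 0.09 (adjusted p = 0.0199), a call lost without untreated mouse 6 or 10 or cyclosporine mouse 7 (adjusted p = 0.0506 to 0.0588).

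Among the phagocyte genes Cyba stood out for its evenness under cyclosporine. It measured 8.56, 8.54, 8.54 and 8.65 in cyclosporine colitis, against 9.38, 9.05, 9.44 and 8.99 in untreated colitis, and fell by 0.65 ± 0.13 (adjusted p = 0.00319). The standard deviation of Cyba was 0.0521 in the cyclosporine group and 0.225 in the untreated group, although the fit takes 1 spread for all groups. Ncf4 measured 7.07, 6.97, 6.84 and 7.34, against 7.91, 7.24, 8.13 and 7.60, and fell by 0.66 ± 0.20 (adjusted p = 0.0341). That call was lost without untreated mouse 5 or 7 or cyclosporine mouse 4, 7 or 9 (adjusted p = 0.064 to 0.115).

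Cybb and Ncf1 did not pass. Cybb measured 8.69, 8.37, 8.07 and 9.13 in cyclosporine colitis, against 9.89, 8.46, 9.86 and 9.23 in untreated colitis, a difference of -0.80 ± 0.27 (adjusted p = 0.0573). Ncf1 measured 7.48, 7.32, 7.02 and 7.65, against 8.40, 7.26, 9.01 and 8.05, a difference of -0.81 ± 0.28 (adjusted p = 0.065). In both, untreated mouse 6 lay inside the cyclosporine range. Without that mouse Cybb (-1.10, adjusted p = 0.00545) and Ncf1 (-1.12, adjusted p = 0.00701) were called lower, and without cyclosporine mouse 10 Cybb was too (-0.99, adjusted p = 0.0249). Of the neutrophil markers 5 of 11 were called lower with cyclosporine, Cd177 by the smallest p (-1.52 ± 0.21, adjusted p = 0.000223). Of the macrophage and monocyte markers 1 of 13 was, Cd14 (-1.01 ± 0.25, adjusted p = 0.0132, and 0.0519 without cyclosporine mouse 7). Structural markers of the epithelium gave 0 of 10 in either direction. Of the B cell and T cell markers 1 of 6 each was called lower, and 5 of 7 smooth muscle markers were called higher. How far these cells account for the oxidase values was not tested.

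**Figure D2:**
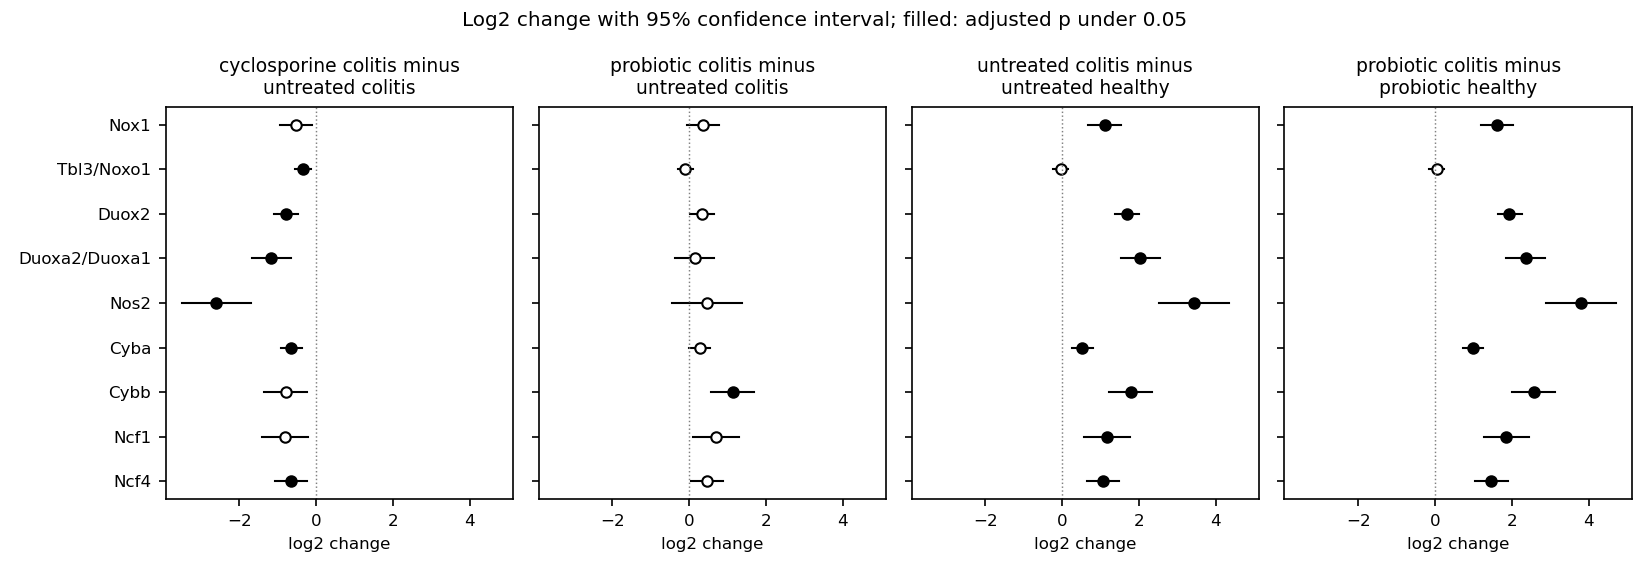
Log2 change of each gene or shared probe set (points) with its 95% confidence interval (bars) in 4 comparisons, filled where the adjusted p is under 0.05. Nos2 lies farthest from 0 in both comparisons of colitis with healthy mice and in that of cyclosporine with untreated colitis, and Cybb is the filled point between probiotic and untreated colitis.

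Set beside the probiotic group, cyclosporine mice had lower values of every tested oxidase gene. In cyclosporine colitis against probiotic colitis 7 of 7 were called lower, where 12% of tested genes were and 23.2% were called in either direction. No gene overlapped between the groups, as 11.1% of tested genes did in this direction. The changes were -3.06 ± 0.43 for Nos2 (8.32-fold lower, adjusted p = 0.000143), -1.93 ± 0.27 for Cybb, -1.51 ± 0.28 for Ncf1, -1.14 ± 0.20 for Ncf4, -1.13 ± 0.15 for Duox2, -0.91 ± 0.13 for Cyba and -0.88 ± 0.20 for Nox1. The call of each of the 7 held without any 1 of the 8 arrays. In this comparison 9 of 11 neutrophil, 11 of 13 macrophage and monocyte, 6 of 6 B cell and 6 of 6 T cell markers were also called lower, and 6 of 7 smooth muscle markers were called higher. Their part in the oxidase values was not tested. This comparison shares its arrays with those above.

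Cyclosporine colitis was then set against untreated healthy mice to see what remained. Of the 7 genes 2 were called higher, where 2.64% of tested genes were and 6.02% were called in either direction. Duox2 measured 9.44, 9.20, 9.09 and 9.29 in cyclosporine colitis, against 8.73, 8.51, 7.98 and 8.21 in untreated healthy mice, and rose by 0.90 ± 0.15 (1.86-fold, adjusted p = 0.00409). Every cyclosporine mouse lay above every healthy mouse, as for 6.55% of tested genes. Cybb rose by 0.99 ± 0.27 (adjusted p = 0.0378), with 8.69, 8.37, 8.07 and 9.13 against 7.54, 7.63, 7.66 and 7.46. That call held only without cyclosporine mouse 9 and was lost without any other of the 8 arrays (adjusted p = 0.0517 to 0.103). In this comparison 3 of 13 macrophage and monocyte markers were called higher, with Mpeg1 at the smallest p (0.95 ± 0.19, adjusted p = 0.00943). Also called higher were 2 of 6 T cell markers, led by Cd4 (1.40 ± 0.23), and 1 of 11 neutrophil markers, Cd177 (1.33 ± 0.21), but 0 of 6 B cell markers. Cd177 stood apart from the other neutrophil markers, which lay between -0.44 for Mmp9 and 0.48 for Retnlg and were not called. The part of these cells in the Cybb value was not tested.

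Nos2 lay above every untreated healthy mouse in every cyclosporine mouse, yet its difference of 0.84 ± 0.43 did not pass (interval -0.07 to 1.75). Nox1 differed by 0.58 ± 0.20 (adjusted p = 0.087, and called at 0.72 with 0.046 without untreated healthy mouse 4). Cyba differed by -0.12 ± 0.13, with an interval of -0.39 to 0.16. The shared probe set of Duoxa2 and Duoxa1 was called higher (0.86 ± 0.24, adjusted p = 0.0413), which failed when untreated healthy mouse 4, 6 or 7 or cyclosporine mouse 4, 7 or 10 was left out (adjusted p = 0.0539 to 0.113). That of Noxo1 and Tbl3 was called lower (-0.39 ± 0.09, adjusted p = 0.0246), which failed when cyclosporine mouse 7 or 10 or untreated healthy mouse 2 or 7 was left out (adjusted p = 0.0537 to 0.0783).

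Ordered by group mean, all 7 tested genes had probiotic colitis highest and untreated colitis next. Cyclosporine colitis came next for each except Cyba, where it fell between the healthy groups. For Duox2 probiotic colitis (10.38 ± 0.0679, SD), untreated colitis (10.05 ± 0.130), cyclosporine colitis (9.25 ± 0.146) and probiotic healthy mice (8.44 ± 0.331) were each without overlap with their neighbour, and the healthy groups overlapped. For Nox1 every neighbour overlapped, at 11.10 ± 0.115 in probiotic colitis, 10.74 ± 0.196 in untreated colitis, 10.22 ± 0.360 in cyclosporine colitis, 9.50 ± 0.404 in probiotic healthy mice and 9.64 ± 0.381 in untreated healthy mice. For Nos2 the only step without overlap was that between untreated colitis (9.70 ± 0.820) and cyclosporine colitis (7.11 ± 0.375). Cybb was separated only between cyclosporine colitis (8.56 ± 0.455) and probiotic healthy mice (7.92 ± 0.199). The neighbours of Ncf1 and Ncf4 overlapped throughout.

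The mean of Nox1 and Duox2 lay in a narrower band than that of the phagocyte genes among mice with DSS colitis and no cyclosporine, a difference that was not tested. Singly the contrast was smaller for some genes. In untreated colitis Nox1 spanned 10.54 to 11.00 (SD 0.196) and Cyba 8.99 to 9.44 (SD 0.225). For each mouse the genes of a class were set against their untreated healthy mean and averaged. Nox1 and Duox2 together stood at 0.52 to 1.04 in cyclosporine colitis, 1.68 to 1.79 in probiotic colitis and 1.29 to 1.52 in untreated colitis. Cyba, Cybb, Ncf1 and Ncf4 together stood at 0.14 to 0.71, 1.13 to 2.06 and 0.53 to 1.63 in the same groups. Probiotic colitis mouse 8 had 1.79 for the epithelial pair, the highest of its group, and 1.13 for the phagocyte genes, the lowest. Untreated colitis mouse 6 likewise had 1.52 for the epithelial pair, the highest of its group, and 0.53 for the phagocyte genes, the lowest. In both mice Nox1 was the highest of its group (11.25 and 11.00) but Duox2 was not (10.33 and 10.03, beside highest values of 10.46 and 10.22). The probe set shared by Duoxa2 and Duoxa1 was at 9.98 in probiotic mouse 8, the lowest of its group, and at 10.22 in untreated mouse 6. In healthy mice the order of the bands was the other way, with the epithelial pair at -0.39 to 0.26 in probiotic and -0.39 to 0.30 in untreated healthy mice, and the phagocyte genes at -0.13 to 0.21 and -0.11 to 0.17. With Nos2 added to the pair the bands were wider, at 1.95 to 2.64 in probiotic colitis and 1.64 to 2.35 in untreated colitis, and probiotic mouse 8 was then the lowest of its group. These 2 mice also had the lowest neutrophil marker means of their groups, 6.83 and 6.75. Nos2, grouped with the epithelium, was the lowest of its group in probiotic mouse 8 but not in untreated mouse 6.

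Once group means were taken off, the genes of the phagocyte oxidase moved together from mouse to mouse. Over the 20 arrays, which share hybridization and normalization, Pearson correlations among the 6 pairs of phagocyte genes were 0.68 to 0.88 with a median of 0.87, against -0.01 to 0.37 among the 3 pairs of Nox1, Duox2 and Nos2. Across the classes the 12 pairs gave -0.32 to 0.63. The highest of these were those of Nos2, which was grouped with the epithelium by name, at 0.40 with Cybb, 0.59 with Cyba, 0.62 with Ncf1 and 0.63 with Ncf4, against -0.01 with Nox1 and 0.37 with Duox2. Nos2 correlated at 0.76 with the mean of the neutrophil markers, 0.55 with that of the macrophage and monocyte markers and 0.03 with that of the structural markers of the epithelium. Its values varied with the phagocyte genes and markers more than with Nox1, while its 0.37 with Duox2 was close to its 0.40 with Cybb. Which cells Nos2 came from was not tested. All these correlations include probiotic colitis mouse 8, which stood apart in Nos2, Cyba, Cybb and Ncf4, and they were not computed without it. Cybb correlated at 0.84 with the macrophage and monocyte, 0.72 with the neutrophil, 0.71 with the B cell and 0.68 with the T cell markers. By the same measure the genes most like Cybb were Inpp5d (0.952), Lcp1 (0.95) and Themis2 (0.945), and those most like Ncf1 were Itgb2 (0.957), Selplg (0.942) and Ccl5 (0.942). Most like Nos2 were Entpd3 (0.901), Tnfrsf1b (0.896) and Rab32 (0.856), and most like Nox1 were Kif23 (0.861), Ddx55 (0.841) and Cand2 (0.84). For Duox2 they were Cdcp3 (0.804), Ddit4l (0.797) and Tmem33 (0.786), for Cyba Scimp (0.917), AB124611 (0.893) and Iscu (0.89), and for Ncf4 Ms4a4c (0.898), Srgn (0.888) and Aif1 (0.887). With group means kept, the gene most like Duox2 was Cd177 (0.962), which was also 3rd for Nox1 (0.917). Cd177 is on the neutrophil list but stood apart from its other genes in cyclosporine colitis against untreated healthy mice. With group means off, the mean of the neutrophil markers correlated at 0.15 with Duox2 and -0.22 with Nox1. All these values are descriptions of the 20 arrays, and the genes named as most like a member were picked as the highest of all tested genes.

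**Figure D3:**
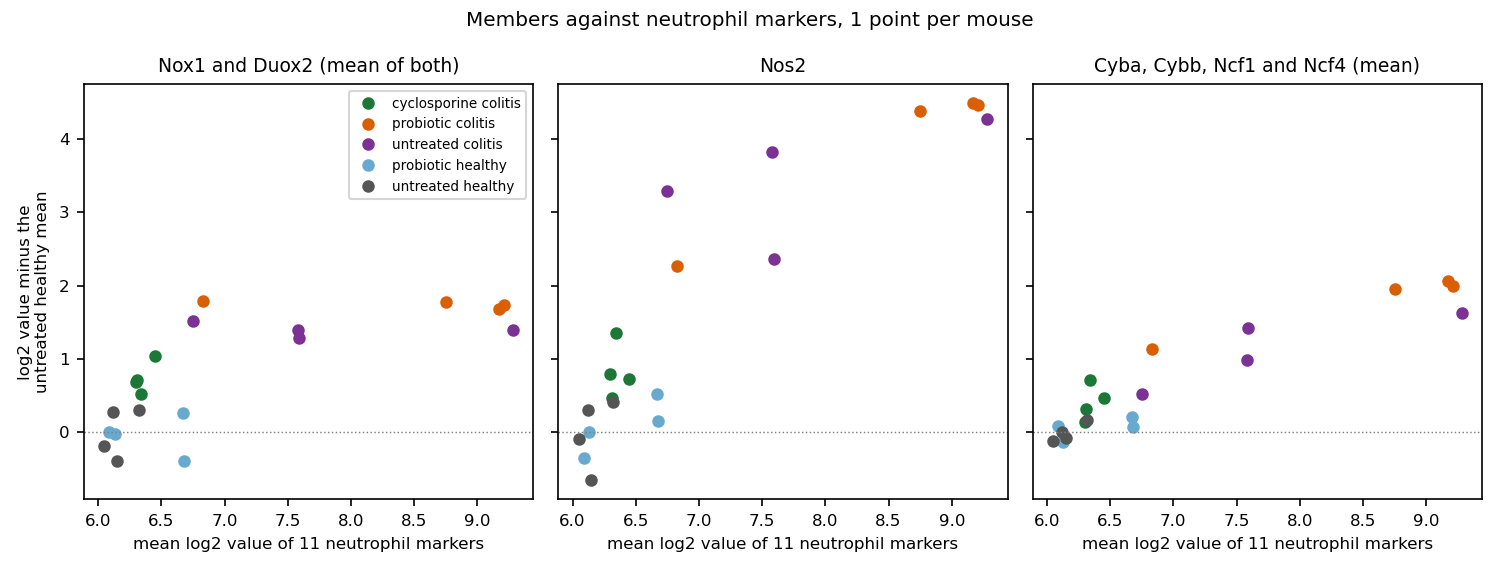
Mean log2 value of 11 neutrophil markers (horizontal) against the log2 value minus the untreated healthy mean (vertical) of Nox1 and Duox2, of Nos2 and of the 4 phagocyte genes, 1 point per mouse. In the left panel probiotic colitis mice keep to 1.68 to 1.79, mouse 8 with markers of 6.83 and the others with 8.75 to 9.21, so that the low end rests on mouse 8 alone. In the right panel the colitis mice with markers of 6.83 and 6.75 lie at 1.13 and 0.53.

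Rac2 was the one other gene of the oxidase and synthase families called higher in untreated colitis. Of the listed genes 9 were tested, and in untreated colitis against untreated healthy mice 1 was called higher and 1 lower. That share does not exceed the 26.1% called over all tested genes, and the median change was 0.16. Rac2, a small GTPase of the phagocyte oxidase in blood cells, rose by 1.41 ± 0.32 (adjusted p = 0.00303), to 10.01 ± 0.887 (SD) in untreated colitis, against 8.60 ± 0.370 in untreated healthy mice. Nos1, the neuronal synthase, fell by 0.33 ± 0.10 (adjusted p = 0.0163, and 0.0656 without untreated colitis mouse 7). Changes of Noxa1, the activator of NOX1 (0.18 ± 0.11), Nox4 (0.20 ± 0.11), Duox1 (0.12 ± 0.09), Cybc1, the chaperone of the Cybb and Cyba pair (0.18 ± 0.09), Rac1 (-0.04 ± 0.06) and Nos3, the endothelial synthase (0.16 ± 0.10), were not called.

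With cyclosporine against untreated colitis 1 of the 9 was called, where 13.2% of all tested genes were. It was Noxa1, which fell by 0.35 ± 0.11 (adjusted p = 0.0452). That call was lost without untreated mouse 6, 7 or 10 or cyclosporine mouse 7, 9 or 10 (adjusted p = 0.0564 to 0.127). Rac2 differed by -0.83 ± 0.32 (adjusted p = 0.0918). Between probiotic and untreated colitis 0 of the 9 were called, where 2.8% of all tested genes were, with Rac2 at 0.75 ± 0.32 (adjusted p = 0.219). Nox3 was under the filter.

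Of the peroxidases that use hydrogen peroxide, 1 of 13 tested rose and 4 fell in untreated colitis. Over all tested genes 11.7% rose and 26.1% were called in either direction, so that the share that rose was no higher than that of all genes, and the median change of the list was -0.13. Lpo, the lactoperoxidase that turns hydrogen peroxide and thiocyanate into an antimicrobial oxidant, rose to 8.83 ± 0.156 in untreated colitis, against 7.37 ± 0.110 in untreated healthy mice, by 1.45 ± 0.11 (adjusted p = 1.24e-07). With cyclosporine it was at 7.73 ± 0.219, lower than in untreated colitis by 1.10 ± 0.11 (adjusted p = 1.12e-05). In probiotic colitis Lpo was at 8.39 ± 0.191, a fall of 0.44 ± 0.11 from untreated colitis (adjusted p = 0.0413). The Lpo call was lost without untreated mouse 6 or 7 or probiotic mouse 5, 7 or 8 (adjusted p = 0.061 to 0.159). Catalase, which breaks hydrogen peroxide down, moved the other way from Lpo in 2 comparisons. Cat fell by 0.52 ± 0.13 in untreated colitis against untreated healthy mice (adjusted p = 0.00716). With cyclosporine it rose by 0.75 ± 0.13 over untreated colitis (adjusted p = 0.00137). Among 15 dismutase, thioredoxin, glutathione and Nrf2 genes 1 rose and 2 fell in untreated colitis, a share below the 26.1% of all tested genes, the smallest p being that of Sod1, the cytosolic superoxide dismutase (-0.35 ± 0.06, adjusted p = 0.000538). With cyclosporine 0 of these 15 rose and 3 fell (median -0.09, beside -0.008 over all tested genes). Over all tested genes 5.58% fell and 13.2% were called in either direction. Between probiotic and untreated colitis 1 rose, the extracellular dismutase Sod3 (0.86 ± 0.21, adjusted p = 0.0389), where 2.13% of all tested genes did. The Sod3 call was lost without untreated mouse 6 or 10 or probiotic mouse 3, 5 or 7 (adjusted p = 0.0933 to 0.144).

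Genes that feed or restrain the nitric oxide synthase were led by Ddah1, which breaks down methylated arginines that inhibit the enzyme. Of 9 genes of arginine supply and use 3 rose and 0 fell in untreated colitis, and the median change was 0.02. Over all tested genes 11.7% rose and 26.1% were called in either direction. Ddah1 rose to 9.86 ± 0.0962 in untreated colitis, against 8.02 ± 0.339 in untreated healthy mice, by 1.84 ± 0.16 (adjusted p = 5.22e-07). Cyclosporine mice were at 8.50 ± 0.142, lower than untreated colitis by 1.36 ± 0.16 (adjusted p = 6.27e-05). Arg2, an arginase that competes for the same substrate, rose by 1.30 ± 0.31 in untreated colitis (adjusted p = 0.00417) and fell by 1.22 ± 0.31 with cyclosporine (adjusted p = 0.0134). Arg1, the other arginase, also rose in untreated colitis, by 0.46 ± 0.15 (adjusted p = 0.0263). That call failed when colitis mouse 5 or 7 or healthy mouse 2 or 7, all untreated, was left out (adjusted p = 0.0579 to 0.0906). With cyclosporine 3 of the 9 fell and 0 rose, where 5.58% of all tested genes fell and 13.2% were called in either direction. Between probiotic and untreated colitis 0 of 9 were called, where 2.8% of all tested genes were.

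The synthase also needs the cofactor tetrahydrobiopterin, and 1 of 5 tested genes of its pathway rose and 1 fell in untreated colitis. Of all tested genes 26.1% were called in either direction there. Gch1, which makes the first committed step, rose by 0.68 ± 0.14 (adjusted p = 0.00171). Qdpr, which recycles the cofactor, fell by 0.49 ± 0.07 (adjusted p = 5.26e-05). Gch1 was lower with cyclosporine by 0.45 ± 0.14 (adjusted p = 0.0435), lost without untreated mouse 6, 7 or 10 or cyclosporine mouse 4, 7 or 10 (adjusted p = 0.0701 to 0.111). Of 12 signal genes known to raise Nos2 or the epithelial oxidases, 6 rose and 0 fell in untreated colitis (median 0.40), and 6 fell and 0 rose with cyclosporine (median -0.36). Over all tested genes 11.7% rose in untreated colitis and 5.58% fell with cyclosporine. Tnf rose by 1.51 ± 0.24 in colitis (adjusted p = 0.000175) and fell by 1.23 ± 0.24 with cyclosporine (adjusted p = 0.00248). Between probiotic and untreated colitis 1 of the 12 was called, where 2.8% of all tested genes were. It was Il18, which fell by 0.46 ± 0.12 (adjusted p = 0.0458), a call lost without untreated mouse 6 or 10 or probiotic mouse 3, 5 or 7 (adjusted p = 0.0581 to 0.195). The interferon gene Ifng was not called in untreated colitis or with cyclosporine, and Il17a and Il22 were under the filter.

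**Figure D4:**
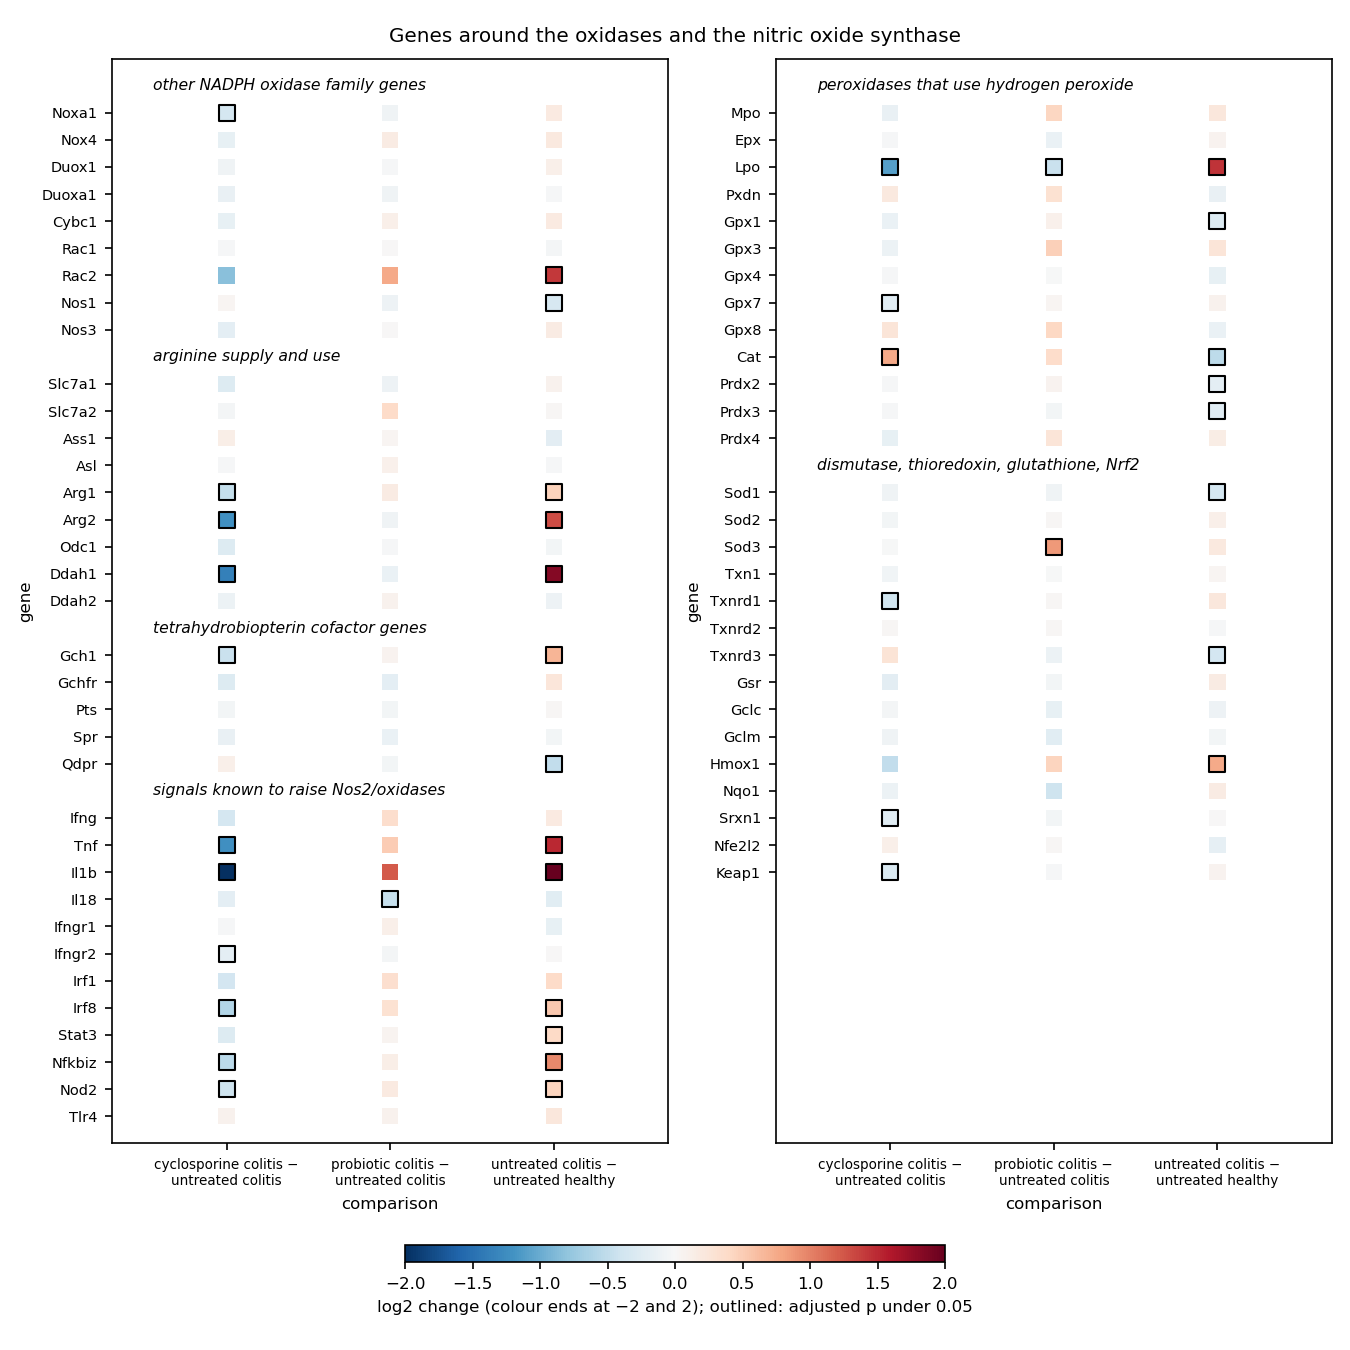
Log2 change of each tested gene around the oxidases and the synthase (rows, by list) in 3 comparisons (columns), coloured by size and outlined where the adjusted p is under 0.05. Lpo, Ddah1, Arg2, Tnf and Il1b are outlined red in untreated colitis against untreated healthy mice and outlined blue in cyclosporine against untreated colitis, and Cat has the opposite colours.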

How the data were processed

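The deposited values are log2 expression per probe set, made by the authors with RMA per the submitters' processing notes, which by its construction corrects background, normalises quantiles over arrays and summarises probes. Not given in the sources used here: its version, its annotation and any batches. No further normalization was applied. Of 41801 probe sets 29195 had values, and the platform annotation gave 1 gene symbol to 22360 of these, several to 1013 and none to 5822. A probe set was kept where it exceeded 5.30, the 25th percentile of named probe sets, on at least 4 arrays, and each gene was represented by its probe set of highest mean.

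Group means were fitted over all 20 arrays with limma 3.58.1 in R 4.3.3 (lmFit and eBayes, with 15 degrees of freedom in the residuals and 4.03 in the prior). The 8 comparisons were adjusted over 16739 genes by the Benjamini-Hochberg method. The fit was tested on simulated data. It takes 1 spread for all groups, so calls between groups of unlike spread are less certain. Groups and mouse numbers come from the sample titles. Same-numbered mice of different groups did not deviate together (20 pairs, correlation -0.19 to 0.43, median 0.02), so no pairs were formed.

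All 9 genes, or their shared probe sets, were examined in every comparison, but not every value is printed. From other lists up to 4 members with the smallest p are given, and every member of the oxidase family list. The members and the lists were chosen with earlier results of these data known. Alternatives on the values were the filter dropped or raised to the 50th percentile, a repeat of quantile normalization, centring by array median, and averaging a gene's probe sets. Alternatives on the fit were robust eBayes with a trend, weighted arrays, mouse number as a block, only the compared groups, no moderation, each array left out, and 3 arrays left out together. Shared probe sets were tested in an alternative chosen after seeing the data. Promoter sequences come from RefSeq for the build GRCm38.p6. Arrays carry no read depth.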

Additional observations from a re-analysis of the deposited data

Results flagged for a closer look

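Of 45 groups of 4 mice, 1 for each of 9 genes or shared probe sets in each of 5 groups, 6 held a mouse whose gap to the nearest other mouse passed Dixon's critical value as a share of the group's range, where chance gives about 1 in 20. Of these, 4 lay in 1 mouse. In probiotic colitis mouse 8 Nos2 was 8.53, with 10.64 to 10.75 in the other 3. In the same mouse Cybb was 9.83 (others 10.69 to 10.73), Cyba 9.02 (others 9.61 to 9.69) and Ncf4 7.58 (others 8.33 to 8.46). Its mean of neutrophil markers was 6.83, the lowest of its group, and its Nox1 (11.25) was the highest. Cyba was 8.95 in untreated healthy mouse 2, with 8.57 to 8.63 in the others. Cyba was also 8.65 in cyclosporine colitis mouse 10, with 8.54 to 8.56 in the others, a gap of small size in a tight group.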

How the results depend on the processing

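Over the alternatives other than leaving out 1 array, 329 of 336 values of the 28 called results for single genes kept their call. When 1 array was left out, 207 of 224 did. All 7 genes were called in both comparisons of colitis with healthy mice and in cyclosporine against probiotic colitis under every alternative, leave-one-out included. Between probiotic and untreated colitis the count of the 7 genes called was 1, but 4 with array weights, 2 without the 3 arrays, and 0 with the replicate block, with the compared groups alone and without moderation. Over all genes that comparison gave 468 calls, but 1682 with array weights, 219 with the replicate block, 0 with the groups alone and 194 without moderation. For cyclosporine colitis against untreated healthy mice, 2 of the 7 were called, but 1 with the replicate block and 1 without moderation, and the 1008 calls over all genes became 25 with the block and 539 with the groups alone. With the block, cyclosporine against probiotic colitis gave 2100 calls over all genes in place of 3890, and Nox1 was called lower with cyclosporine against untreated colitis (-0.79, adjusted p = 0.0113). With the groups alone, cyclosporine against untreated colitis gave 1119 in place of 2202, and probiotic against untreated healthy mice 19 in place of 0. The test of whether the probiotic altered the colitis effect gave 0 calls over all genes, but 5 with array weights, 1 with the block and 13 without the 3 arrays. Mouse numbers pair no samples, so a call lost under the block is not read as a weaker effect, and the cause of these shifts was not tested. Leaving out 1 array at a time gave 3 to 6 of the 7 genes for cyclosporine against untreated colitis, 0 to 4 for probiotic against untreated colitis and 1 to 2 for cyclosporine colitis against untreated healthy mice. Over all genes it gave 1353 to 2447 (lowest without cyclosporine mouse 7), 71 to 1223 (lowest without probiotic mouse 5, highest without probiotic mouse 8) and 371 to 1050 (lowest without untreated healthy mouse 2), and for the altered colitis effect 0 to 45 (highest without probiotic mouse 8). Signs turned only in uncalled differences near 0. For probiotic against untreated healthy mice these were Nox1 (0.01 with the block), the Duoxa2 and Duoxa1 probe set (0.12 with the block, 0.04 without the 3 arrays, -0.44 to 0.04 leaving out 1 array), Duox2 (-0.05 to 0.21), Ncf1 (-0.06 to 0.05), Ncf4 (-0.02 to 0.19) and Nos2 (-0.13 to 0.23). For the Noxo1 and Tbl3 probe set they were untreated colitis against untreated healthy mice (0.03 with the block, -0.10 to 0.05 leaving out 1 array) and the altered colitis effect (-0.01 to 0.15). Of 5021 values of named genes of the other lists under alternatives, 4354 kept their side of the threshold and 0 turned their sign while called. Array signal limits what can be seen in dim genes: Nos2 in healthy mice, at 5.62 to 6.80, lay near the filter level of 5.30, so its change may be compressed.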
